A study of Mus musculus with 3 samples.

Results

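Heat shock chaperones were described in pmel T cells recovered from B16F10 melanoma, as 10 genes chosen by symbol out of the 33696 genes counted. They were taken in 2 classes. The 6 inducible members, *Hspa1a*, *Hspa1b*, *Hspb1*, *Dnajb1*, *Hsph1* and *Bag3*, are low in unstressed cells by textbook knowledge, and the 4 constitutive members, *Hspe1*, *Hspd1*, *Hsp90aa1* and *Dnaja1*, are made in unstressed cells as well. All 10 were found in the files. The inducible members together were at 187 to 213 CPM (UMIs per 1000000 UMIs) in a library. About 1% of the cells were chosen by part of these UMIs, at a mark set after the data were seen. These cells held 12.05% to 16.29% of the inducible UMIs that took no part in the choice. The constitutive members were at 2014 to 2503 CPM, were found in most cells and were highest with IL-2/21-Trikine.

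The cells were Thy1.1+ CD8 T cells from TCR transgenic pmel mice, whose receptor recognizes the melanoma antigen gp100. They had been preconditioned in culture with peptide and 1 of 3 cytokine preparations, which were sIL-2, IL-2/21-Trikine and a mix of sIL-2 + IL-21, and were then transferred into irradiated C57BL/6 mice bearing subcutaneous B16F10 tumors, the mouse melanoma line. sIL-2 is an IL-2 engineered to bind IL-2Rβ tightly, and IL-2/21-Trikine joins it to an IL-21Rα binder. In the low-dose regimen, recipients of Trikine-preconditioned cells were given Trikine, and recipients of both other preparations were given sIL-2 alone, so the sIL-2 + IL-21 group differed from the sIL-2 group in preconditioning only. Tumors were taken on day 18 after tumor injection, minced and dissociated, and live Thy1.1+CD8+ cells were sorted and sequenced as 1 library per group. The mice pooled in a library are not given in the sources used here, and the age of the recipients at harvest is not either. With 1 library per group there was no replicate and no test between groups. Every interval below is at 95% and covers counting error only, not variation between mice, sorts or libraries.

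Kept cells numbered 13299 for IL-2/21-Trikine, 9798 for sIL-2 + IL-21 and 7760 for sIL-2, at median depths of 10254 to 14055.5 UMIs per cell, where a UMI counts 1 captured RNA molecule. At least 98.4% of the kept cells in each library had a UMI of a T cell marker. Cells with 3 or more UMIs of myeloid, melanoma, B cell or erythroid markers made up 6.89% for IL-2/21-Trikine, 24.8% for sIL-2 + IL-21 and 19.8% for sIL-2. Most of these counts came from *Fcer1g*, which gave 59.6% to 86.4% of the myeloid marker UMIs and was named after its values were seen. Without it the cells with 3 or more such UMIs were 1.38%, 2.04% and 3.78% in the same order. Where cells with markers of other types are left out below, *Fcer1g* is counted, so most of the cells left out pass only with it. Libraries shared 18 to 43 cell barcodes in pairs.

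Heat shock proteins are chaperones that hold, refold or pass on proteins that have lost their shape. Heat, oxidants, inhibited protein breakdown and other insults release the transcription factor HSF1, which binds heat shock elements, repeated short units of GAA and TTC, and drives the inducible genes within minutes. In T cells, chaperones of the cytosol and of mitochondria also accompany activation and growth, when protein synthesis is high.

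RefSeq promoter windows, each of 250 bases before and 50 bases from the start site on, were found for 9 of the 10 members, with *Hsp90aa1* not among them. Both strands were searched for a pair of facing units, which is GAA, any 2 bases and TTC, or TTC, any 2 bases and GAA. They were also searched for 3 units, which is such a pair followed after any 2 bases by its first unit again, so that a match of 3 units holds overlapping pairs. A pair was found for 8 of these 9 members, all but *Dnajb1*, and 3 units for *Hsph1*, *Hspe1* and *Hspd1*. The only pair of *Bag3* and the 3 units of *Hsph1* lay after the start site, so the stretches printed below do not hold them. Of all 32851 windows, 15.1% held a pair and 0.603% held 3 units. Counted per gene with a match in any window, as for the members, the shares were 17.0% and 0.662% of 27025 genes. The last 150 bases before the start site are printed 5′ to 3′ on the gene's strand for 6 members with a match there, with matches in capitals, because these are the sequences that the inducible and the constitutive members can be compared on. *Hspd1* is not printed, since its matches are those of *Hspe1* read on the other strand.
Hspa1a: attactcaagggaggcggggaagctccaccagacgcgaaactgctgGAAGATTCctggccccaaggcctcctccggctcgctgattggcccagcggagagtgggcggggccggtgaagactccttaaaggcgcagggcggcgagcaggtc
Hspa1b: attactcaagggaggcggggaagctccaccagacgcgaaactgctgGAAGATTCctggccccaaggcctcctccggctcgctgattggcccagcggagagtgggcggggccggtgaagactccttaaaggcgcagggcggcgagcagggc
Hspb1: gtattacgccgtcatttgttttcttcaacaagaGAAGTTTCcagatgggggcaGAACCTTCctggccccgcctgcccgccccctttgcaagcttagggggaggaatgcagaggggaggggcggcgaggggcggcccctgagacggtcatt
Hsph1: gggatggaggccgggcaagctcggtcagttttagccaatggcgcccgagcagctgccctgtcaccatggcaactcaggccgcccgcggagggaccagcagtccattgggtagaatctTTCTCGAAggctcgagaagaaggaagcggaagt
Hspe1: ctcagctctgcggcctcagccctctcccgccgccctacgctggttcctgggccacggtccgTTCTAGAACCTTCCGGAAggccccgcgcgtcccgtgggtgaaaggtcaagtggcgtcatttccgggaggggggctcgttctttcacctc
Dnaja1: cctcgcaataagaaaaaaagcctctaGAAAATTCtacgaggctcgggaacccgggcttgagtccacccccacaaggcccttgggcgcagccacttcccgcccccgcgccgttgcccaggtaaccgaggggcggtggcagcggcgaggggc

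In GRCm38.p6 these stretches are chr17:34972157-34972306 on the minus strand for *Hspa1a*, chr17:34959239-34959388 on the minus strand for *Hspa1b* and chr5:135887769-135887918 on the plus strand for *Hspb1*. The stretch of *Hsph1* is chr5:149636337-149636486 on the minus strand, that of *Hspe1* is chr1:55087998-55088147 on the plus strand and that of *Dnaja1* is chr4:40722318-40722467 on the plus strand. The full windows of *Hspa1a* and *Hspa1b* were the same at 296 of 300 bases, with a single pair starting at -104 in each. *Hspe1* and *Hspd1* lie head to head, so that 1 of the 2 windows of *Hspd1* covered 285 bases of the *Hspe1* window on the other strand and both genes shared the same 3 overlapping pairs, which begin between -89 and -79 from the *Hspe1* start. The presence of a match therefore did not divide the inducible from the constitutive members. A match is a run of letters and not evidence of binding.

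Levels are a library's UMIs of a gene over all its kept cells, scaled to 1000000 UMIs (CPM). Unless groups are named, values stand in the order sIL-2, then IL-2/21-Trikine, then sIL-2 + IL-21. They are not corrected for transcript length, since the assay reads 3′ ends, and are compared for the same gene between libraries. *Hspa1a* (ENSMUSG00000091971) and *Hspa1b* (ENSMUSG00000090877) encode the main stress-induced Hsp70 proteins. *Hspa1a* was at 20.6 CPM with sIL-2, at 14.5 CPM in the IL-2/21-Trikine library and at 17.6 CPM in that of sIL-2 + IL-21. *Hspa1b* was at 30.6, 23.7 and 21.2 CPM. Both were highest with sIL-2, and the other 2 libraries changed places between the 2 genes. With cells weighted equally they did not, since the log2 ratio of IL-2/21-Trikine over sIL-2 + IL-21 for *Hspa1b* turned from 0.16 to -0.091. The 2 genes are near-identical copies, so reads that match both may have been dropped or divided, and the share of *Hspa1b* in their joint UMIs, 59.8%, 62.2% and 54.7%, is uncertain for that reason.

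*Dnajb1* (ENSMUSG00000005483), an Hsp40 that hands clients to Hsp70, was nearly level at 52.0, 48.5 and 50.8 CPM. *Hsph1* (ENSMUSG00000029657), an Hsp110 that exchanges the nucleotide of Hsp70, was at 95.5, 102 and 81.4 CPM. *Bag3* (ENSMUSG00000030847), a cochaperone that links Hsp70 to selective autophagy, was at 9.89, 8.01 and 7.18 CPM. *Hspb1* (ENSMUSG00000004951), the small heat shock protein Hsp27, was at 4.201, 5.24 and 8.57 CPM. It alone among the 6 was highest with sIL-2 + IL-21. *Hspb1* and *Bag3* were below the 10 CPM in the mean of the libraries that was asked of genes in the counts below.

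*Hspe1* (ENSMUSG00000073676) and *Hspd1* (ENSMUSG00000025980) encode Hsp10 and Hsp60, the lid and the barrel of the mitochondrial chaperonin. *Hspe1* was at 496, 695 and 571 CPM. *Hspd1* was at 320, 419 and 357 CPM. Both had the order IL-2/21-Trikine, sIL-2 + IL-21, sIL-2. *Hsp90aa1* (ENSMUSG00000021270), the stress-responsive cytosolic Hsp90, was at 691, 799 and 783 CPM, with its 2 higher libraries only 0.028 apart on the log2 scale, a difference that turned to -0.016 without cells holding 3 or more UMIs of other types' markers. *Dnaja1* (ENSMUSG00000028410), an Hsp40 of the cytosol, was at 507, 590 and 466 CPM, and it alone among the 4 was lowest with sIL-2 + IL-21.

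**Figure D1:**
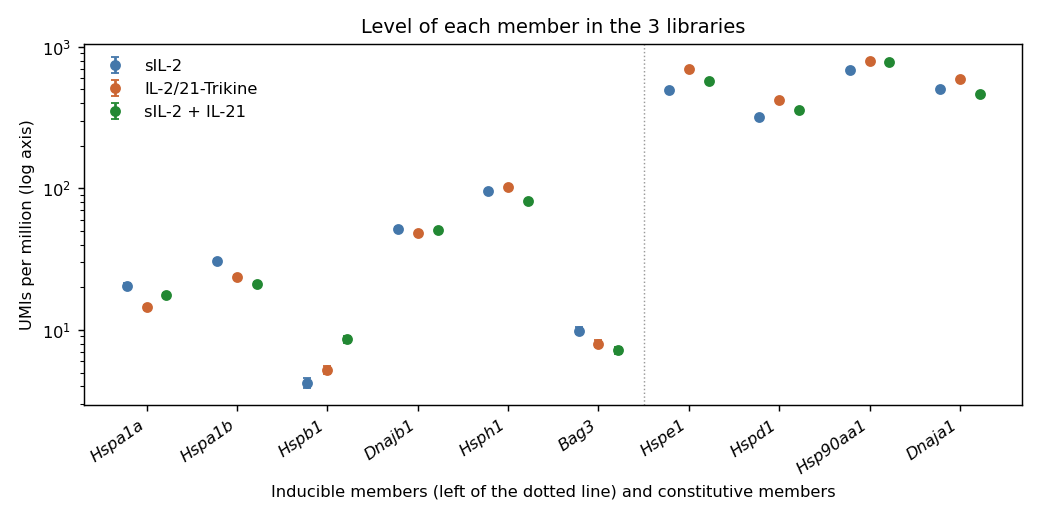
CPM of each member (log axis) in the 3 libraries, with 95% counting intervals that are mostly smaller than the points. All 4 constitutive members were highest with IL-2/21-Trikine, *Hsp90aa1* by only 0.028 on the log2 scale, while *Hspa1a*, *Hspa1b* and *Bag3* were highest with sIL-2.

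Summed over the class, the inducible members were at 213, 202 and 187 CPM. The constitutive members summed to 2014, 2503 and 2177 CPM. The 2 classes thus had different orders over the libraries. Without *Hspa1a* and *Hspa1b* the rest of the inducible members summed to 162, 163 and 148 CPM, so sIL-2 was then not the highest. Their log2 ratio of IL-2/21-Trikine over sIL-2 was 0.017, with an interval that holds 0 (-0.0095 to 0.043). IL-2/21-Trikine over sIL-2 gave a log2 ratio of 0.31 for the constitutive sum (interval 0.31 to 0.32), and of -0.08 for the inducible sum (-0.10 to -0.05), and the latter turned to 0.0020 with median-of-ratios size factors and to 0.023 with TMM factors. sIL-2 + IL-21 over sIL-2 gave 0.11 for the constitutive sum (0.10 to 0.12) and -0.19 for the inducible sum (-0.21 to -0.17). IL-2/21-Trikine over sIL-2 + IL-21 gave 0.20 (0.19 to 0.21) and 0.11 (0.09 to 0.13) in the same order.

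Among single members, the mitochondrial pair had the highest ratios of IL-2/21-Trikine over sIL-2, with a log2 ratio of 0.49 for *Hspe1* (interval 0.47 to 0.50) and 0.39 for *Hspd1* (0.37 to 0.40). Of the 7370 genes at 10 CPM or more, 2.75% had a higher ratio than *Hspe1* and 4.87% a higher one than *Hspd1*. *Dnaja1* at 0.22 and *Hsp90aa1* at 0.21 followed, with 13.5% and 14.2% of genes above them. At the other end, *Hspa1a* had a log2 ratio of -0.51 (-0.59 to -0.43) and *Hspa1b* one of -0.37 (-0.43 to -0.30), with 5.21% and 11.4% of genes below them. *Dnajb1* at -0.10 lay close to the median of all genes, -0.08, and *Hsph1* at 0.09 lay above it, with 26.3% of genes higher.

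A log2 ratio of 0.5 in either direction was taken as the mark. In the ratio of IL-2/21-Trikine over sIL-2, none of the 8 members at 10 CPM or more reached it upward, where 2.56% of all genes did, and *Hspa1a* reached it downward, where 5.41% of all genes did. *Hspe1* passed the mark with median-of-ratios or TMM scaling and with cells weighted equally. *Hspa1a* missed it with the 2 scalings, which add 0.08 and 0.10 to every ratio over sIL-2, and also without high cells (-0.35), without raised cells (-0.44) and without cells holding markers of other types (-0.49). In that of sIL-2 + IL-21 over sIL-2, *Hspa1b* alone reached it, downward, at -0.53 (-0.59 to -0.46), where 9.89% of all genes did, and none did upward, where 5.2% did. *Hspa1b* missed the mark too with either scaling, with cells weighted equally (-0.45), without high cells (-0.45), without the highest 5% of Scrublet doublet scores (-0.48) and without cells holding markers of other types (-0.41). In that of IL-2/21-Trikine over sIL-2 + IL-21 no member at 10 CPM or more reached it in either direction, against 3.18% of genes upward and 2.86% downward. Counts of 0 or 1 of 8 members are near the shares over all genes and are not a result about the members.

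The class medians were set beside the median of all 7370 genes at 10 CPM or more. For the 3 pairs in the order below, 2823, 2994 and 3768 of these genes were above 0. Counts out of 4 members are too small to be set against these shares. With IL-2/21-Trikine set over sIL-2, the median of the 4 constitutive members was 0.30 with all 4 above 0. The 4 inducible members at 10 CPM or more had -0.23 with 1 of 4 above 0, against -0.08 over all genes. For sIL-2 + IL-21 over sIL-2 the medians were 0.17 with 3 of 4 above 0 and -0.23 with none of 4, against -0.07 over all genes. For IL-2/21-Trikine over sIL-2 + IL-21 they were 0.26 with all 4 above 0 and 0.05 with 2 of 4, against 0.00.

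**Figure D2:**
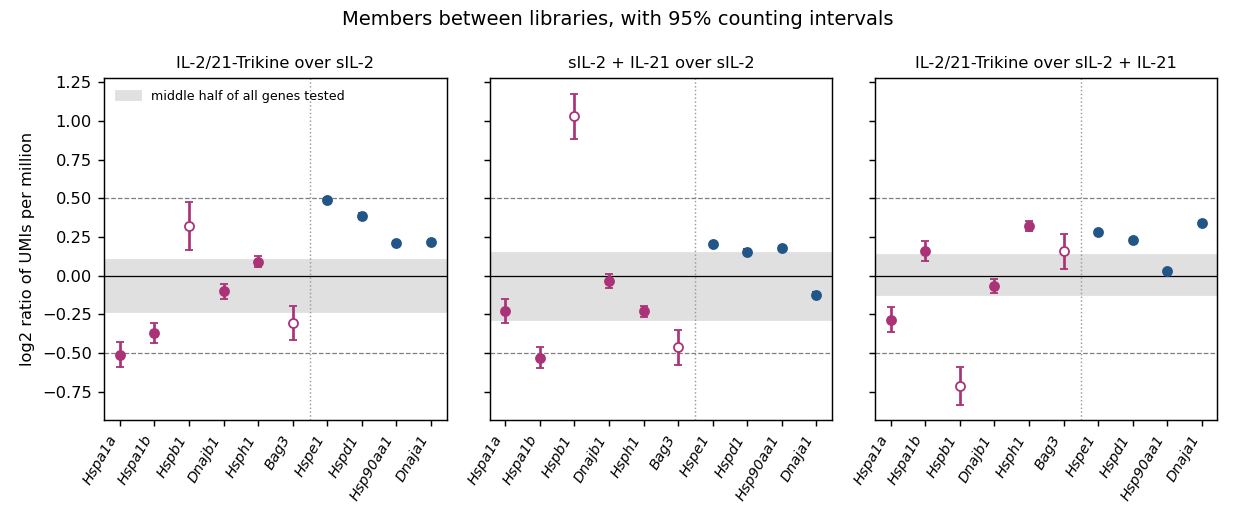
Log2 ratio of CPM for each member in the 3 pairs of libraries, with 95% counting intervals. The gray band spans the middle 50% of the 7370 genes, dashed lines mark ratios of 0.5 and -0.5, open points are members under 10 CPM, and *Hspe1* and *Hspd1* stand above the band in every panel.

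For IL-2/21-Trikine over sIL-2, other chaperone families had lower medians than the constitutive members. Of all 7370 genes, 2823 were above 0 in this ratio. The 8 subunits of the cytosolic chaperonin TRiC, which folds actin and tubulin, had log2 ratios of IL-2/21-Trikine over sIL-2 with a median of 0.15 and all 8 above 0, led by *Cct6a* at 0.27 and *Cct8* at 0.20. Another 7 mitochondrial chaperones and import factors had a median of 0.12 with 5 of 7 above 0. The 11 cytosolic cochaperones had 0.07 with 9 of 11 above 0, led by *Hspbp1*, an exchange factor of Hsp70, at 0.50 and *Ptges3*, the p23 cochaperone of Hsp90, at 0.37. The 14 chaperones of the endoplasmic reticulum had 0.08 with 9 of 14 above 0. For sIL-2 + IL-21 over sIL-2, TRiC had a median of 0.17 with all 8 above 0, level with the constitutive members at 0.17. Cochaperones had 0.13, chaperones of the endoplasmic reticulum 0.10 and the other mitochondrial ones 0.04. For IL-2/21-Trikine over sIL-2 + IL-21 these 4 families had -0.03, 0.07, -0.02 and 0.06 in the same order, against 0.26 for the constitutive members.

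In the log2 ratio of Trikine over sIL-2, 14 other stress genes at 10 CPM or more had a median of -0.03. Of these, 6 were above 0, and *Ier5* at -0.63 and *Hspa4l* at -0.54 were among those past the mark downward. *Hspa8*, the Hsp70 made in all cells, was at 1102, 1045 and 923 CPM, and *Hsp90ab1*, the constant Hsp90, at 1861, 1989 and 2133 CPM. *Hsf1*, which encodes the factor that drives the response, was at 22.4, 19.9 and 17.1 CPM. Its protein acts through release from chaperones, so its RNA level is no measure of its activity.

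Lists of other programs differed between the same libraries. For IL-2/21-Trikine over sIL-2, 2823 of all 7370 genes were above 0. The 16 proliferation genes had a median log2 ratio of 0.51 when IL-2/21-Trikine was set over sIL-2, with 16 above 0, and the 13 immediate-early genes had -0.37, with none above 0. The granzyme list, 8 genes with perforin (*Prf1*) among them, had -1.66 and 11 interferon-response genes -0.56, with none above 0 in either list. For sIL-2 + IL-21 over sIL-2 the medians were 0.77 for proliferation, -0.12 for immediate-early, 0.55 for granzyme and -1.64 for interferon-response genes. The constitutive sum was lower in cells rich in granzyme RNA, at 1592 against 2106, 2159 against 2549 and 2067 against 2250 CPM, and in those rich in interferon-response RNA, at 1690 against 2064, 2216 against 2551 and 1748 against 2208 CPM. In cells rich in proliferation RNA the constitutive sum was 2092 against 2027, 2342 against 2568 and 2244 against 2193 CPM. In those rich in immediate-early RNA it was 2098 against 2026, 2746 against 2525 and 1972 against 2211 CPM. These 2 ranges thus had no common direction over the libraries. The part of these programs in the ratios of the members was not tested. Constitutive levels also went with depth, from 1287 CPM in sIL-2 cells of 500 to 2000 UMIs to 2180 CPM in those of 20000 or more. In each of 5 depth classes the IL-2/21-Trikine library was the highest for the constitutive sum. In cells of 5000 to 10000 UMIs it was 1676, 2240 and 1762 CPM. The inducible sum with sIL-2 was 209 CPM in that class and 217 CPM in cells of 20000 or more.

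The members differed most in how their UMIs were spread over cells. Cells were ranked by their UMIs of a gene, and the fewest cells that held 50% of that gene's UMIs were counted. For *Hspb1* these were 4 of 7760, 6 of 13299 and 9 of 9798 cells. The highest single cell held 128, 134 and 217 *Hspb1* UMIs, or 23.4%, 15.3% and 15.1% of the library's total for the gene. For *Hspa1a* it took 61, 119 and 81 cells, and for *Hspa1b* 125, 205 and 115 cells, which is 0.786% to 1.61% of the cells.

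*Dnajb1* and *Hsph1* were broader, with 50% of their UMIs in 7.91% to 10.0% of the cells, and *Bag3* lay between at 2.92% to 3.79%. Constitutive members needed 10.5% to 22.2% of the cells, the least for *Hspd1* and the most for *Dnaja1*. For comparison, *Hspa8* needed 19.99% to 23.3% and *Cd3e*, a chain of the T cell receptor complex, 23.3% to 26.7%. The measure also moves with how many UMIs a gene has, and *Bag3* shows the limit of this, since it had fewer UMIs than *Hspa1a* in every library and was spread over more cells.

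**Figure D3:**
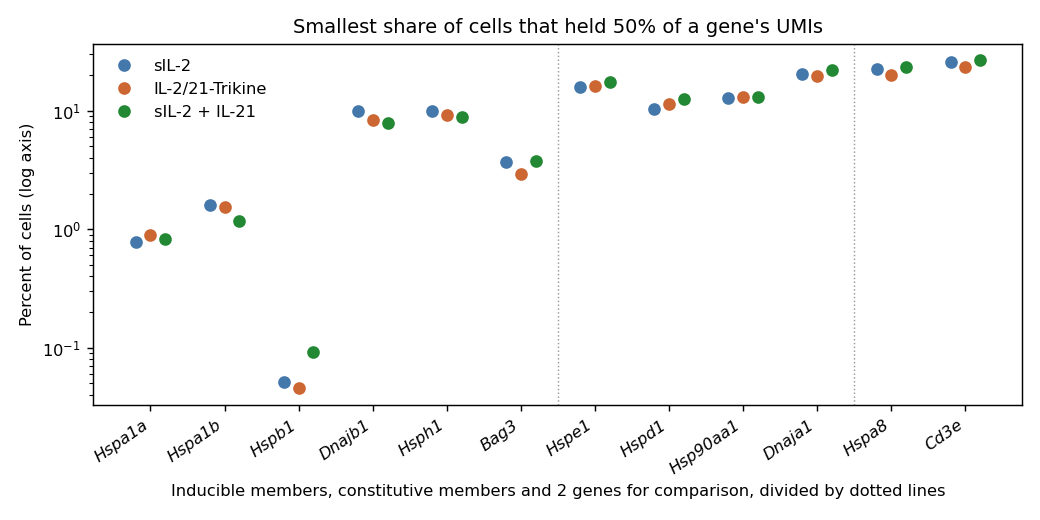
Smallest percent of kept cells that together held 50% of a gene's UMIs (log axis), for the 10 members and for *Hspa8* and *Cd3e*, in the 3 libraries. *Hspb1* lies under 0.1% and *Hspa1a* and *Hspa1b* near 1%, while the constitutive members lie above 10%.

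To compare cells at equal depth, 2000 UMIs were drawn from each cell, which left out 266, 1775 and 364 shallower cells. At least 1 UMI of *Hspa1a* was then seen in 2.27%, 1.99% and 2.19% of cells (7.40%, 6.08% and 6.48% at full depth). The share for *Hspe1* was 54.5%, 67.0% and 60.8% (91.1%, 86.6% and 92.1% at full depth). The order of *Hspe1* at equal depth was that of its CPM, and the order at full depth was not. *Hsp90aa1* was seen in 60.05%, 65.7% and 63.6% of drawn cells and *Dnajb1* in 9.74%, 9.28% and 9.44%. The sort held no cells that should lack these genes, so a share that free RNA alone would give was not measured.

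The variance of the drawn UMIs over their mean, which is 1 where cells differ by chance counting alone, was 5.46 to 6.38 for *Hspb1* and 1.99 to 3.05 for *Hspa1a*. It was 1.29 to 1.52 for *Hspe1* and 1.03 to 1.10 for *Bag3*. For the same relative spread this ratio lies nearer 1 at a lower mean. The mean was 0.0162 to 0.0196 drawn UMIs per cell for *Bag3* and 0.895 to 1.32 for *Hspe1*, so it does not rank these genes by evenness. The highest 1% of cells held 65.4% to 67.7% of drawn *Hspa1a* UMIs, 16.7% to 18.0% of those of *Hsph1* and 5.57% to 6.25% of those of *Hspe1*. The share was 53.7% to 66.7% for *Bag3*. *Hspa1a* was seen in 1.99% to 2.27% and *Bag3* in 1.55% to 1.91% of drawn cells. With so few cells holding a UMI the highest 1% must hold a large share, so this measure does not set these 2 genes apart.

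High cells, defined as cells with at least 20 of 2000 drawn UMIs from the 6 inducible members, were 5 of 7494, 4 of 11524 and 4 of 9434 cells. The shares were 0.0667% (0.0217% to 0.156%), 0.0347% (0.00946% to 0.0888%) and 0.0424% (0.0116% to 0.109%), and the 3 intervals overlap. Another 2, 6 and 4 cells had 16 to 19 UMIs. The 4 to 5 high cells of a library held 2.28% to 3.79% of its drawn inducible UMIs. These are the counts that chose the cells, so this share was set in part by the choice. No cell reached 40 UMIs, which allows shares of up to 0.0492%, 0.0320% and 0.0391%.

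Because so few cells passed, a lower mark of 5 of 2000 drawn UMIs was added after the data were seen, and cells at or above it are called raised cells. They were 67, 102 and 99 cells, or 0.894% (0.694% to 1.13%), 0.885% (0.722% to 1.07%) and 1.05% (0.854% to 1.28%). The 3 libraries did not differ beyond these intervals. Raised cells are a range of counts and not a cell type: 16, 40 and 34 of them stood at 5 UMIs, and 39, 52 and 53 other cells at 4. Raised cells held 12.7%, 12.8% and 16.9% of the inducible UMIs of all kept cells, against 2.37%, 2.21% and 2.45% of the constitutive ones. The inducible shares include the UMIs that chose the cells, so part of this excess was set by the choice. Of the inducible UMIs that had not been drawn, raised cells held 12.05%, 12.11% and 16.29%. Of the constitutive UMIs not drawn they held 2.31%, 2.13% and 2.401%, and of all UMIs not drawn 0.819%, 0.812% and 0.997%.

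**Figure D4:**
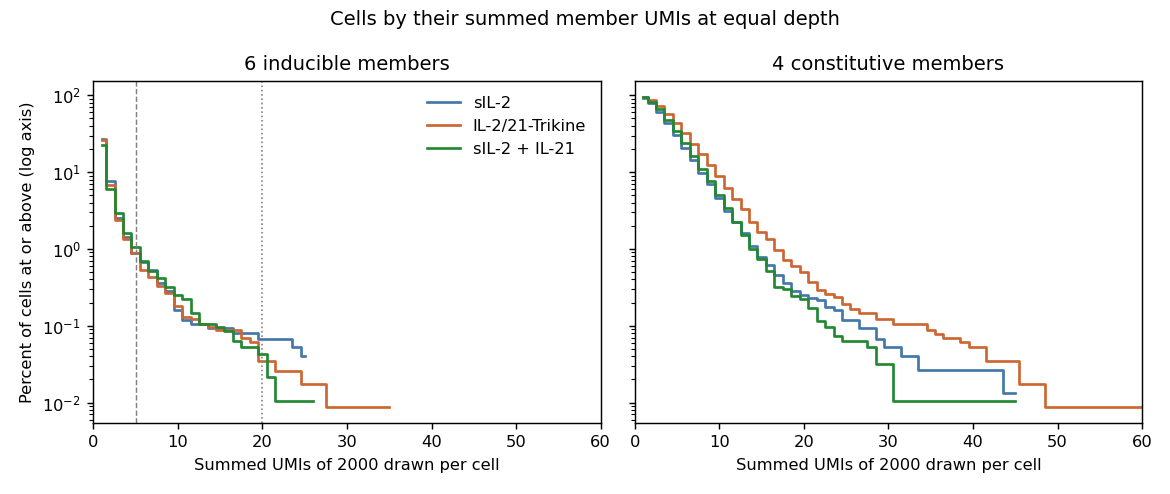
Percent of cells (log axis) at or above a number of summed member UMIs, out of 2000 drawn per cell, for the inducible (left) and constitutive members (right). The dashed line marks 5 UMIs and the dotted line 20. In the order sIL-2, then IL-2/21-Trikine, then sIL-2 + IL-21, the inducible curves stand at 27.1%, 26.5% and 22.8% of cells at 1 UMI. At 5 UMIs they stand at 0.894%, 0.885% and 1.05%. The constitutive curve of IL-2/21-Trikine lies above the other 2.

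Raised cells were then read in the UMIs that had not been drawn. The inducible sum chose the cells, and there it was at 3125, 3003 and 3039 CPM against 188, 178 and 157 CPM in the other cells of the same library. Only 2, 1 and 2 of the raised cells had no inducible UMI left. Per gene the log2 ratio of raised over other cells was highest for *Hspb1*, at 7.33, 8.48 and 7.87, and next for *Hspa1a*, at 5.82, 5.53 and 5.81. It was 4.89, 4.86 and 5.32 for *Hspa1b*, 3.45, 3.63 and 3.52 for *Dnajb1* and 2.83 to 3.15 for *Hsph1* and *Bag3*. All 6 took part in the choice, so neither the size nor the order of these ratios is independent of it.

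The constitutive members did not choose these cells. *Hsp90aa1* was at 2353 CPM in raised and 689 CPM in other cells of the sIL-2 library, and at 2878 against 799 CPM and 2479 against 782 CPM in the next 2. Its log2 ratio was 1.77 (1.71 to 1.83), 1.85 (1.80 to 1.90) and 1.66 (1.62 to 1.71). *Dnaja1* had 1.54, 1.40 and 1.15, *Hspe1* 1.31, 1.10 and 1.05, and *Hspd1* 1.15, 0.83 and 0.81. All 4 were higher in raised cells in every library, in the order *Hsp90aa1*, *Dnaja1*, *Hspe1*, *Hspd1*.

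The 17 other stress genes had a summed log2 ratio of 0.52, 0.61 and 0.51. Of those with a UMI, 14 of 16, 14 of 17 and 13 of 17 were higher in raised cells. The share of all genes that were higher in raised cells was not counted, here or for the lists below. Those known as targets of HSF1 differed among themselves. *Zfand2a*, an arsenite- and heat-inducible zinc finger gene, had a log2 ratio of 2.31, 2.34 and 2.25, on 21 to 30 UMIs in raised cells. *Hspa4l*, an Hsp110, had 1.18, 1.70 and 0.92, and *Hspa8* 0.60, 0.80 and 0.77. *Dnajb6*, an Hsp40, had -0.07, -0.09 and -0.10, with intervals that hold 0. These genes were picked for display after their values were seen.

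Other chaperone families differed less between raised and other cells. The summed log2 ratio was 0.00, 0.08 and 0.17 for TRiC, -0.14, -0.03 and 0.14 for the other mitochondrial chaperones and 0.06, -0.27 and -0.11 for those of the endoplasmic reticulum, which were lower with IL-2/21-Trikine (interval -0.32 to -0.23) and sIL-2 + IL-21 (-0.14 to -0.07). It was -0.17, -0.19 and -0.33 for T cell markers, -0.16, -0.15 and -0.36 for immediate-early genes and 0.61, 0.50 and 0.12 for the granzyme list. The immediate-early genes did not move as 1, since 8, 6 and 1 of the 14 were higher in raised cells. *Jun*, a subunit of the transcription factor AP-1 and the 1 that was higher in every library, had 1.46, 1.74 and 1.68, and was named after its values were seen. The granzyme list, which includes perforin, did not move as 1 either, with 8, 5 and 4 of the 8 higher in raised cells. Single genes of that list had log2 ratios from 0.03 to 3.77 with sIL-2, from -1.99 to 0.94 with IL-2/21-Trikine and from -1.07 to 0.66 with sIL-2 + IL-21.

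Measures of cell quality and of other cells in raised cells were as follows. Their median depth was 12012, 10453 and 15911 UMIs against 13377, 11617 and 14553 in other cells, and their median mitochondrial share was 1.20%, 1.09% and 1.15% against 1.27%, 1.32% and 1.35%. The 12 myeloid markers summed to 310, 111 and 219 CPM in raised and 222, 92.5 and 217 CPM in other cells, of which *Fcer1g* gave 280 of 292, 112 of 128 and 303 of 325 UMIs in raised cells. The other 11 myeloid markers summed to 12.7, 13.9 and 14.8 CPM in raised and 41.4, 34.8 and 25.8 CPM in other cells, and melanoma markers to 3.19, 3.47 and 4.04 against 6.39, 9.40 and 2.23 CPM. Erythroid markers had 1, 0 and 0 UMIs in raised cells. Scrublet put 2 raised cells of each library among its highest 5%. The part of these in the result was not tested.

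**Figure D5:**
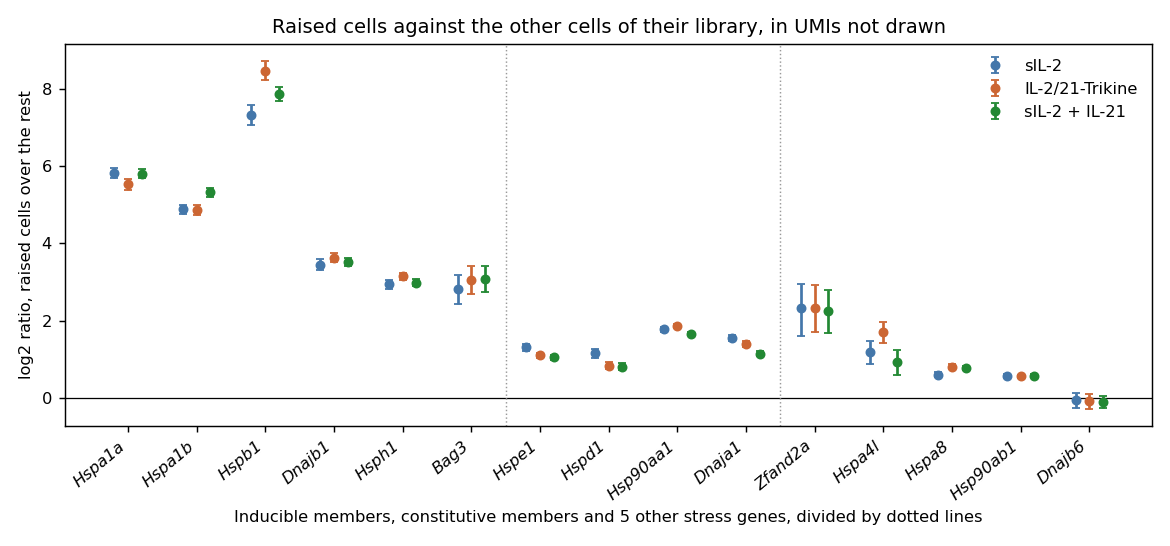
Log2 ratio of raised cells over the other cells of their library, in UMIs not used to choose them, for the 10 members and 5 other stress genes, with 95% counting intervals. *Hspb1* lies between 7.33 and 8.48 and the constitutive members between 0.81 and 1.85, while *Dnajb6* lies between -0.10 and -0.07.

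The few cells that carried most *Hspb1* were then examined. The 19 cells that held 50% of its UMIs in the 3 libraries all had UMIs of T cell markers, at least 24 each. All 19 had another inducible member, but at full depth 74.0%, 64.7% and 68.8% of all kept cells had an inducible UMI. T cell markers were lower in them than in the rest, at 3614 against 4649, 2856 against 4069 and 2894 against 3848 CPM. *Hspa1a* was found in 13 of these 19 cells and *Hspa1b* in 12. Over all kept cells of a library the shares were 6.08% to 7.40% and 8.51% to 11.8%. The other 5 inducible members together were at 2518, 3291 and 2155 CPM in these cells against 207, 195 and 175 CPM in the rest. Collagen and endothelial genes (*Col1a1*, *Col1a2*, *Col3a1*, *Pecam1*, *Cdh5*) summed to 5 UMIs over all 19, and their level in the other cells was not counted. Of the 19, 8 had 3 or more UMIs of other types' markers. By library these were 1 of 4, 2 of 6 and 5 of 9 cells, against 19.8%, 6.89% and 24.8% of kept cells. The counts include *Fcer1g* and were not made without this gene for the 19 cells. Their median depth was 23487, 14246.5 and 21675 UMIs, above the library medians.

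The ratios of *Hspb1* between libraries moved in either direction with the few cells left out. Without the high cells, 4 to 5 a library, it was at 3.04, 4.64 and 8.45 CPM. The log2 ratio of sIL-2 + IL-21 over sIL-2 was then 1.47 and that of IL-2/21-Trikine over sIL-2 was 0.61. Without raised cells it was at 1.79, 1.33 and 2.54 CPM. The log2 ratio of sIL-2 + IL-21 over sIL-2 went from 1.03 (0.89 to 1.17) to 0.50 (0.27 to 0.74), and that of IL-2/21-Trikine over sIL-2 changed sign, from 0.32 to -0.43. Counting intervals take UMIs as independent, so they are too narrow where a few cells carry a gene.

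*Hspa1a* and *Hspa1b* stayed highest with sIL-2 in both cases, though single ratios of *Hspa1a* came to near 0. Without the high cells its log2 ratio of sIL-2 + IL-21 over sIL-2 went from -0.23 to -0.064 (-0.14 to 0.015). Without raised cells that of IL-2/21-Trikine over sIL-2 + IL-21 went from -0.28 to -0.094 (-0.19 to 0.0014). There *Hspa1a* was at 13.96, 10.3 and 11.02 CPM and *Hspa1b* at 24.4, 19.0 and 14.9 CPM. The constitutive sum kept its ratios, at 0.32, 0.11 and 0.20. The inducible sum of sIL-2 + IL-21 over sIL-2 went from -0.19 to -0.26.

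Correlations between members over cells were weak and are given as a description over the 7494, 11524 and 9434 drawn cells of the libraries, which share depth by construction. The highest Pearson's r was 0.37, 0.36 and 0.55 for *Hspa1a* with *Hspa1b*, followed by 0.28, 0.29 and 0.28 for *Hspd1* with *Hsp90aa1*. *Hspe1* with *Hspd1* had 0.19, 0.24 and 0.19. The 24 pairs of an inducible with a constitutive member had medians of 0.06, 0.08 and 0.07.

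Outside the members, the genes most like the inducible sum (mean r over the libraries) were *Hsp90ab1* at 0.10, *Hspa8* at 0.10, the metallothioneins *Mt2* at 0.09 and *Mt1* at 0.09, *Jun* at 0.09 and *Rgs1* at 0.08. *Cacybp*, *Ncl*, *Sap30* and *Ptma* followed at 0.06. *Mt2* had 0.18 with sIL-2 + IL-21 and 0.03 with sIL-2. Those most like the constitutive sum were *Ptma* at 0.32, *Ncl* at 0.32, *Hsp90ab1* at 0.31 and *Npm1* at 0.31, then *Xcl1*, *Ran*, *Eif5a*, *Eif4a1*, *Ranbp1* and *Set* at 0.24 to 0.27. *Ncl* and *Npm1* are nucleolar proteins of ribosome assembly, *Eif5a* and *Eif4a1* are translation factors, and *Xcl1* is a chemokine of activated CD8 T cells.

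The constitutive members parted from each other across cell states. For each of 4 gene lists, cells above a list count that at most 10% of all drawn cells reached in the 3 libraries together were set against the rest of their library. In cells rich in interferon-response RNA, *Hspd1* was at 221 against 336, 296 against 434 and 233 against 366 CPM. *Hsp90aa1* was lower there as well, at 526 against 718, 646 against 826 and 537 against 803 CPM. *Dnaja1* went the other way, at 545 against 497, 686 against 579 and 523 against 460 CPM.

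In cells rich in immediate-early RNA, *Dnaja1* was at 679 against 479, 854 against 576 and 640 against 454 CPM. The log2 ratios were 0.50, 0.57 and 0.50. *Hsp90aa1* was level in 2 of these libraries, at 704 against 702 and 816 against 816 CPM, and at 601 against 807 CPM in the sIL-2 + IL-21 library. *Hspa1a* had 10.0 against 22.1, 15.9 against 14.5 and 5.61 against 17.9 CPM, so it was lower in these cells in the sIL-2 and sIL-2 + IL-21 libraries, while its log2 ratio with IL-2/21-Trikine, 0.13, had an interval that holds 0 (-0.23 to 0.48).

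In cells rich in granzyme RNA, *Dnaja1* was at 341 against 527, 433 against 592 and 388 against 487 CPM. In cells rich in proliferation RNA, *Hsp90aa1* was at 872 against 682, 878 against 804 and 916 against 776 CPM, and *Hspe1* at 466 against 508, 578 against 729 and 522 against 588 CPM. *Hsp90aa1* was thus higher and *Hspe1* lower in such cells in all 3 libraries. These ranges hold 2.77% to 19.2% of the cells of a library, are cut from counts and are not cell types.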

How the data were processed

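For each of 3 libraries of 10x Genomics 3′ chemistry, the values the authors deposited are UMI counts of genes in called cells, not normalized. The file headers name Cell Ranger 9.0.0, the methods a GRCm39 reference with intronic reads included, and the submitters' processing notes mm10, so no position was taken from the files. Promoter windows came from RefSeq (GRCm38.p6).

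Cells with 500 to 120000 UMIs and at most 20% of UMIs from 13 mitochondrial genes were kept, the limits of the methods. UMIs were summed per library and scaled to CPM. Ratios carry exact conditional binomial intervals, shares exact binomial (Clopper-Pearson) intervals and sums exact Poisson intervals. Genes at 10 CPM or more in the mean of the libraries entered counts over genes. For equal depth, 2000 UMIs per cell were drawn without replacement with a fixed seed. Scrublet called 4, 0 and 0 doublets, too few to have worked, so its highest 5% of scores served as an alternative. The text names all members, the leading genes of each chaperone list, and the 10 non-members of highest likeness to each class. Results of 1 listed gene are not reported here. Members and lists were chosen with earlier results of these data known. Steps were tested on simulated data. Alternatives changed cell limits, scaling, weighting, thresholds and depth. Tools were Python 3.11.15, numpy 2.4.6, scipy 1.17.1, pandas 2.3.3, scanpy 1.11.5, matplotlib 3.10.9, R 4.3.3 and edgeR 4.0.16 (for TMM factors).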

Additional observations from a re-analysis of the deposited data

How the results depend on the processing

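No paired analysis was possible because each group is 1 library, and leaving out replicates did not apply for the same reason.

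The constitutive sum kept its sign in all 3 pairs under the 9 alternatives run, and the inducible sum did so except for IL-2/21-Trikine over sIL-2. There its log2 ratio of -0.08 became 0.0020 with median-of-ratios size factors, 0.023 with TMM factors, -0.042 without high cells and -0.12 without cells holding 3 or more UMIs of other types' markers. For sIL-2 + IL-21 over sIL-2 it was -0.11 with size factors, -0.088 with TMM, -0.15 without high cells, -0.14 without cells of other markers and -0.26 without raised cells. For IL-2/21-Trikine over sIL-2 + IL-21 it was 0.086 without the highest 5% of Scrublet scores, 0.026 without cells of other markers and 0.18 without raised cells. The constitutive sum for IL-2/21-Trikine over sIL-2 was 0.39 with size factors, 0.41 with TMM and 0.27 without cells of other markers. For sIL-2 + IL-21 over sIL-2 it was 0.19 with size factors, 0.21 with TMM and 0.080 with cells weighted equally. For IL-2/21-Trikine over sIL-2 + IL-21 it was 0.23 with cells weighted equally, 0.19 without the highest Scrublet scores and 0.16 without cells of other markers. Of the 30 ratios of single members, 4 changed sign under an alternative: *Hspa1b* and *Hsp90aa1* for IL-2/21-Trikine over sIL-2 + IL-21 (lowest -0.091 and -0.016), *Hspb1* for IL-2/21-Trikine over sIL-2 (lowest -0.43) and *Dnajb1* for sIL-2 + IL-21 over sIL-2 (highest 0.065).

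The share of high cells in the order sIL-2, then IL-2/21-Trikine, then sIL-2 + IL-21 was 0.160%, 0.182% and 0.254% at 10 of 2000 UMIs, 0 in each at 40, and 0.894%, 0.885% and 1.05% at 5, the mark added after the data were seen. Without *Hspa1a* and *Hspa1b* and at 10 UMIs it was 0.0667%, 0.104% and 0.0954%. It was 0.0392%, 0.0573% and 0.0522% at 10 of 1000 drawn UMIs and 0.0550%, 0.0466% and 0.0225% at 50 of 5000, so the order of the libraries was not stable. For IL-2/21-Trikine over sIL-2, 1 member instead of 0 passed a log2 ratio of 0.5 upward with size factors, TMM or equal weighting, and downward 0 instead of 1 did with either scaling or a minimum of 50 CPM, and 2 with equal weighting. For sIL-2 + IL-21 over sIL-2, 1 instead of 0 passed upward with no minimum level (*Hspb1*), and downward 0 instead of 1 with either scaling, equal weighting or 50 CPM. For IL-2/21-Trikine over sIL-2 + IL-21, 1 instead of 0 passed downward with no minimum (*Hspb1*). Apart from scalings, which shift every ratio over sIL-2 by construction, the cause of these moves was not tested.

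Counting intervals leave out differences between mice, sorts and libraries, which 1 library per group cannot show. At 2000 UMIs per cell, a gene at 10 CPM gives no UMI in most cells, and *Bag3* was seen in 1.55% to 1.91% of drawn cells. The share of cells with a UMI of *Bag3* therefore moves with depth.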

Other observations

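The depth classes of cells gave the inducible sum another course than the constitutive one. With sIL-2 + IL-21 it was 347 CPM (interval 288 to 414) in the 364 cells of 500 to 2000 UMIs, 160 CPM (154 to 166) in those of 5000 to 10000 and 198 CPM (195 to 200.9) in those of 20000 or more. The constitutive sum of that library was 1256, 1762 and 2411 CPM in the same classes. With sIL-2 the inducible sum was 294 CPM (257 to 334) in cells of 2000 to 5000 UMIs and 205 CPM (201.1 to 210) in those of 10000 to 20000, and with IL-2/21-Trikine 224 CPM (208 to 242) and 195 CPM (192 to 199). The shallow cells were left out of the drawn counts.

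Cells with a drawn UMI of *Hspa1a* were followed for the other members. *Hspa1b* was seen in 42.4%, 32.8% and 52.2% of them (order sIL-2, then IL-2/21-Trikine, then sIL-2 + IL-21), against 4.06%, 3.08% and 2.63% of all drawn cells, and reads that match both copies were not told apart. *Hspb1*, which shares no such likeness with *Hspa1a*, was at 81.8 against 2.28, 54.5 against 4.11 and 199 against 3.73 CPM in these and other cells, where 4, 6 and 9 cells held 50% of its UMIs.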
